A study of Homo sapiens with 9 samples.

Results

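Immediate early gene high cells were the cells of each library in which transcripts of FOS, JUN, EGR1 and IER2 made up the largest part of the RNA counted. In cells with at least 500 detected genes and at most 20% of counts from mitochondrial genes, the unique molecular identifiers (UMIs, 1 per captured transcript) of these 4 genes were summed and divided by all UMIs of the cell. The top 10% of this share in each of 6 libraries gave 2048 high cells out of 20451, and the other 18403 are called remaining cells. The high cells numbered 349, 371 and 468 in the HaloTag libraries with 25, 52 and 70 repeats, and 313, 275 and 272 in the Dendra2 libraries in the same order.

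All libraries came from U2OS, a human osteosarcoma line, in which RPB1, the largest subunit of RNA polymerase II, was fused at the N-terminal end to HaloTag, an enzyme that couples to synthetic dyes, or to Dendra2, a fluorescent protein. The C-terminal domain (CTD) of RPB1, its repetitive tail, had 25, 52 or 70 repeats (25R, 52R, 70R). Every line had been given the RNA polymerase II inhibitor α-amanitin at 1 µg/ml for 6 days, so no group lacked the drug. Each of the 6 lines gave 1 library of single-cell 3′ RNA counts, and the sources used here do not say whether a line is a single clone. The Dendra2 libraries were sequenced on another date than the HaloTag libraries, so tag and sequencing date cannot be told apart. The 6 libraries served as replicates of the difference between high and remaining cells, which were compared within a library.

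Immediate early genes are transcribed within minutes of a stimulus, such as a growth factor or stress, by factors already present in the cell. Serum response factor (SRF) with its partners binds CArG boxes, and CREB and ATF family proteins bind cyclic AMP response elements. Many of the products are transcription factors: FOS and JUN family proteins pair as AP-1, and EGR1 is a zinc-finger factor. Others are brakes, such as phosphatases that switch off the kinases ERK and p38, or proteins that speed decay of the short-lived messages. IER2 is a nuclear protein of the same early response.

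Promoter sequences of the 4 scoring genes are shown with that of JUNB, the AP-1 gene outside the score with the smallest adjusted p. Each is the stretch of 200 bases before the RefSeq transcription start (GRCh38.p14), read 5′ to 3′ on the gene's own strand. Capitals mark a CArG box, a half-site of the cyclic AMP response element (TGACG, or CGTCA on the other strand), or the ATF site known from the JUN promoter (TGACATCA).
EGR1: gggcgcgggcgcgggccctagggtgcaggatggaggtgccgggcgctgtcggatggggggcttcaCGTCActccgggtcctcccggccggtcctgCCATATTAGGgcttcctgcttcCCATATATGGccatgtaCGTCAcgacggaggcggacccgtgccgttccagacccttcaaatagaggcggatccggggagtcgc
FOS: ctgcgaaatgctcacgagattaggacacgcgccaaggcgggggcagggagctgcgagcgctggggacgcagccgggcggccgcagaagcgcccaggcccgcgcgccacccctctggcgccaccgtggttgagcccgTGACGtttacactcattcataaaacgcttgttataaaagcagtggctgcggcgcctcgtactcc
JUN: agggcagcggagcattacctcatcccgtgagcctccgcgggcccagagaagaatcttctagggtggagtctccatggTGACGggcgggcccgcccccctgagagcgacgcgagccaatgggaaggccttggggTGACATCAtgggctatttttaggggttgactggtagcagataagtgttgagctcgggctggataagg
IER2: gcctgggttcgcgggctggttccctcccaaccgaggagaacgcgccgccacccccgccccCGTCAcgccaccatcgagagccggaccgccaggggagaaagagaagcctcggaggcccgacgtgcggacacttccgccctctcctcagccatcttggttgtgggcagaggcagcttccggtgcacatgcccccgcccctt
JUNB: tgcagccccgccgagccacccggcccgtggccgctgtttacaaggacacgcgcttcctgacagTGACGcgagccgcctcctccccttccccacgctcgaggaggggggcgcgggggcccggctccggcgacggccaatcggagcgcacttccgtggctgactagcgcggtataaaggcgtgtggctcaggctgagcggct
These stretches lie at chr5:138465279-138465478 (plus strand), chr14:75278628-75278827 (plus), chr1:58784048-58784247 (minus), chr19:13150211-13150410 (plus) and chr19:12791286-12791485 (plus). EGR1 was the gene here with 2 CArG boxes, CCATATTAGG and CCATATATGG, and it also held 2 half-sites. FOS, IER2 and JUNB each held 1 half-site, and JUN held 1 half-site and the TGACATCA site. Sites farther upstream are not seen here, so a gene without a CArG box in its stretch may hold one elsewhere. Both strands were searched over 250 bases before the start of 27305 genes in the RefSeq table, of which 1.44% held a CArG box, 24.9% the half-site TGACG, 2.03% the full element TGACGTCA, 2.91% TGACATCA and 5.19% the AP-1 site TGACTCA. The half-site is part of the full element, so these shares overlap. Only 69.5% of the genes tested below had a window, so no motif was compared between called and other genes.

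The share was small and continuous. Its library medians over all kept cells lay between 0.0217% in HaloTag 25R and 0.0451% in HaloTag 70R, and the lowest share among high cells lay between 0.0515% and 0.0987% in the same libraries. Just outside the threshold, the highest remaining cell had 0.0515% in HaloTag 25R and 0.0986% in HaloTag 70R. A cut by rank leaves neighbouring values on both sides, so this closeness cannot show whether high cells form a separate type. The median high cell held between 9 and 13 scoring UMIs, against 3 to 5 in remaining cells, and at least 1 high cell in each library had a single scoring UMI. Summed over cells, the 4 genes took 0.0377% ± 0.0119 (SD, n = 3) of UMIs in HaloTag and 0.0323% ± 0.0032 (n = 3) in Dendra2 libraries (exact permutation p = 0.6, two-sided, smallest possible 0.1).

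**Figure D1:**
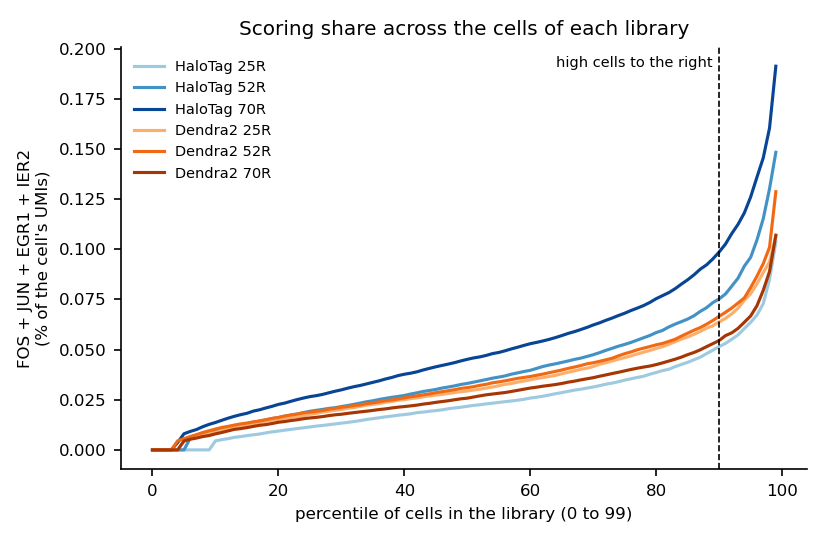
Share of FOS, JUN, EGR1 and IER2 in each cell's UMIs (y axis, %) against the percentile of the cell in its library (x axis, up to the 99th), 1 line per library. The dashed line is the 90th percentile, at which high cells begin. The lines bend upward near it with no step, and HaloTag 70R lies above the other libraries.

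The scoring genes themselves were 2.33 to 2.91 times (JUN), 2.63 to 3.08 times (IER2), 3.92 to 5.83 times (FOS) and 4.04 to 8.0 times (EGR1) as high in high as in remaining cells over the 6 libraries, which the choice of cells fixes. To ask whether the 4 genes were high in the same cells, high cells were chosen again by 3 of them and the fourth was measured. Each left-out gene was higher in the chosen cells of 6 of 6 libraries. EGR1 averaged 94.5 CPM (UMI counts scaled to a common total per class and library) in chosen and 32.1 in remaining cells, a log2 difference of 1.62 ± 0.36 (SD, n = 6). FOS averaged 67.0 against 22.9 CPM (1.46 ± 0.31), IER2 236 against 142 CPM (0.73 ± 0.20), and JUN 174 against 134 CPM (0.38 ± 0.22). All 4 had a two-sided exact permutation p of 0.03125, also after adjustment over the 4, which is the smallest that 6 libraries allow. When the cells were chosen within 10 bins of equal numbers of cells ranked by UMIs (depth bins), the differences were 1.55, 1.24, 0.65 and 0.35 in the same order. Across single cells the pairs of genes were only weakly ranked together: Spearman's rho, each over 2718 to 4677 cells of a library that share the denominator and the depth, lay between 0.0136 (JUN and IER2) and 0.253 (EGR1 and IER2).

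High cells held fewer UMIs, and UMIs are the denominator of the share. The median was 12809 UMIs in high against 15824 in remaining cells as a mean of libraries, lower in 6 of 6, and the medians of detected genes were 3692 and 4118. HaloTag 70R had the shallowest high cells, with a median of 8085 UMIs. Mitochondrial genes took 7.36% ± 1.71 of counts in high and 7.02% ± 1.53 in remaining cells (SD, n = 6), higher in 5 of 6 libraries (adjusted exact permutation p = 0.0781 over 5 cell measures). Choice within depth bins made the medians 15513 and 15527 UMIs, and the main counts of genes below are therefore given for both choices.

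Across 16248 tested genes, with the 4 scoring genes left out, 841 (5.18%) were higher and 1751 (10.8%) lower in high cells at an adjusted p under 0.05 (edgeR's quasi-likelihood test on UMIs summed per library and class, with the library as block, Benjamini-Hochberg). Within depth bins 597 of 16018 (3.73%) were higher and 1340 (8.37%) lower. Of these, 439 higher genes were shared, or 52.2% of the first and 73.5% of the second list, and 1140 lower genes, or 65.1% and 85.1%. The direction of the bulk of calls depended on the scaling: with library totals in place of TMM (trimmed mean of M values) factors, 1593 genes (9.80%) were higher and 753 (4.63%) lower, and the median log2 difference of all genes went from -0.004 to 0.063. Under that scaling 2586 of the 2592 called genes kept their direction and 1594 were still called. Of 1469 genes with 100 CPM or more, 772 were lower and 75 higher, and the median size of the called log2 differences was 0.16.

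**Figure D2:**
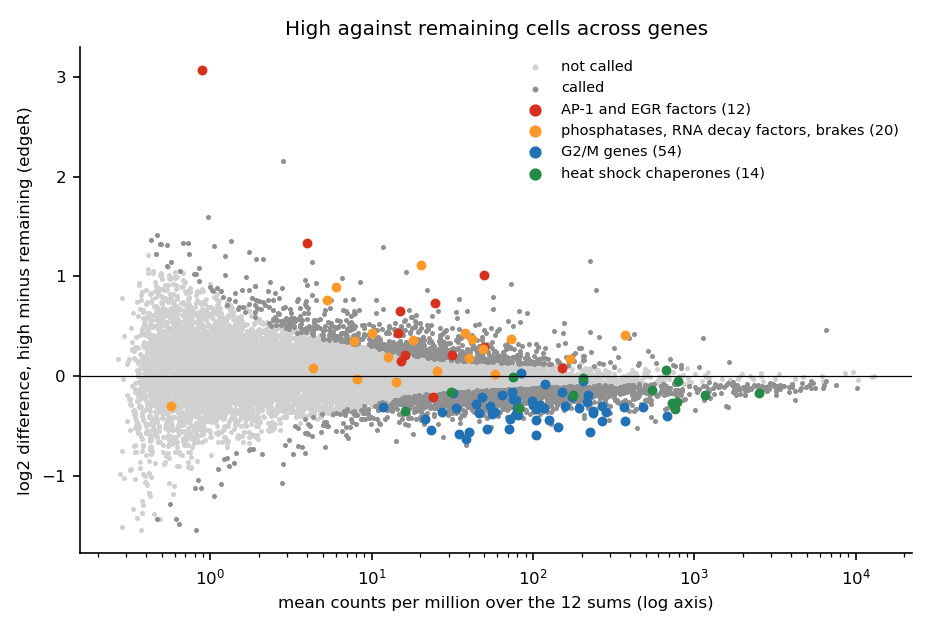
Log2 difference between high and remaining cells (y axis, edgeR) against mean CPM over the 12 sums (x axis, log axis) for each tested gene, with called genes in dark grey and 4 gene lists in colour. AP-1 and EGR factors and the phosphatases and decay factors lie mostly above 0, and G2/M genes and chaperones mostly below.

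Of the AP-1 and EGR family beyond the scoring genes, 8 of 12 tested members were higher and 1 lower, with a median log2 difference of 0.36 against -0.004 over all genes. Within depth bins 9 were higher and 1 lower. JUNB, an AP-1 subunit, had the smallest adjusted p of the family. Its normalised level in high cells was between 51.6 and 99.8 CPM (median 63.9) and in remaining cells between 26.5 and 49.1 CPM (median 30.7), so the classes did not overlap over the 6 libraries. The log2 difference was 1.02 ± 0.046 (SE; edgeR adjusted p = 2.61e-16). HaloTag 70R was the highest library in both classes.

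FOSB, another FOS-family subunit, stood at 2.65 to 11.9 CPM (median 3.18) in high and 0.570 to 6.48 CPM (median 1.77) in remaining cells, with a log2 difference of 1.33 ± 0.26 (edgeR adjusted p = 0.000471). It was higher in 6 of 6 libraries, with overlap between the classes because Dendra2 25R was high in both. EGR2, a relative of EGR1, was rare: 43 UMIs in all high cells, and 19 of them in HaloTag 70R. Its fitted log2 difference was 3.07 ± 0.38 (edgeR adjusted p = 6.58e-07), at a mean of 0.89 CPM. Only 1 UMI was seen in the high cells of Dendra2 25R against 9 in the more numerous remaining cells, or 0.25 against 0.20 CPM.

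ATF3, a stress-induced partner of JUN proteins, ran from 16.8 to 55.4 CPM (median 27.1) in high and 12.9 to 24.8 CPM (median 18.1) in remaining cells, with a log2 difference of 0.74 ± 0.090 (edgeR adjusted p = 5.67e-07). HaloTag 70R was the exception, with 16.8 against 17.4 CPM. MAFF, a small MAF protein, was higher by 0.65 ± 0.091 in 6 of 6 libraries. FOSL2 was higher by 0.29 ± 0.054 and NAB2, a corepressor of EGR proteins, by 0.43 ± 0.087, both in 6 of 6. FOSL1 passed the test at 0.21 ± 0.070 but was higher in only 4 of 6 libraries. JUND, at a mean of 152 CPM, had a log2 difference of 0.09 (edgeR adjusted p = 0.0946), which became 0.10 (0.0126) within depth bins. NAB1 and MAFK had differences of 0.21 and 0.16 that did not pass. BATF3, which pairs with JUN proteins, was the member that was lower, at -0.21 ± 0.065 in 6 of 6 libraries.

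Among other transcription factors and nuclear proteins of the early response, 12 of 21 were higher and 0 lower (edgeR). Within depth bins 11 were higher and 1 lower, and the median was 0.22 and 0.21. IER3, a regulator of cell survival, had the smallest adjusted p of all genes tested. It stood at 247 to 405 CPM (median 308) in high and 136 to 211 CPM (median 171) in remaining cells, without overlap, a log2 difference of 0.86 ± 0.036 (edgeR adjusted p = 4.16e-17). HES1, a repressor known from Notch signalling, was higher by 0.66 ± 0.047, with 42.4 CPM in the high cells of HaloTag 25R and 77.1 to 133 CPM in those of the other 5. BHLHE40 was higher by 0.61 ± 0.074 and KLF10 by 0.49 ± 0.059, both in 6 of 6 libraries. The orphan nuclear receptors NR4A2 (0.94 ± 0.21) and NR4A3 (1.02 ± 0.35) passed at 2.36 and 0.79 CPM. Within depth bins NR4A3 had 0.89, was higher in 4 of 6 libraries and did not pass (edgeR adjusted p = 0.0930). NR4A1 had 0.24 ± 0.12 (edgeR adjusted p = 0.201). MYC had 0.12 ± 0.054 (edgeR adjusted p = 0.142) and SRF itself 0.18 ± 0.087 (0.172).

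Brakes of the response were higher too: 11 of 20 tested members were higher and 0 lower (median 0.31), and 12 and 0 within depth bins (median 0.25). DUSP2, a nuclear phosphatase of ERK and p38, stood at 18.8 to 44.6 CPM (median 25.4) in high and 9.55 to 18.0 CPM (median 11.3) in remaining cells, without overlap, a log2 difference of 1.11 ± 0.095 (edgeR adjusted p = 1.47e-09). DUSP5, an ERK phosphatase, was higher by 0.76 ± 0.13 and DUSP1 by 0.37 ± 0.053. DUSP6, the cytosolic ERK phosphatase, was scarce at 0.57 CPM and had -0.30 ± 0.42 (edgeR adjusted p = 0.719). Proteins that direct decay of AU-rich messages were also higher: ZFP36 by 0.89 ± 0.12, and ZFP36L1 by 0.41 ± 0.029. PPP1R15A, which restores translation after stress, was higher by 0.43 ± 0.053 and BTG2, an antiproliferative factor, by 0.37 ± 0.072. Each of DUSP2, DUSP5, DUSP1, ZFP36, ZFP36L1, PPP1R15A and BTG2 was higher in 6 of 6 libraries.

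With library totals, 11 of 12 AP-1 and EGR members, 15 of 21 other factors and 13 of 20 brakes were higher and 0 lower, and with DESeq2 6, 9 and 10 were higher and 0 lower, so neither of these called BATF3 lower. Over all 16248 genes, library totals gave 1593 higher and 753 lower, and DESeq2 608 and 1264.

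Secreted and cell-surface early genes were higher for 8 of 18 members and lower for 0 (median 0.27), with 9 and 0 within depth bins. CCN2, like CCN1 a matrix-associated signalling protein, stood at 158 to 228 CPM (median 169) in high and 109 to 158 CPM (median 118) in remaining cells, 0.53 ± 0.035 (edgeR adjusted p = 4.71e-12). The 2 classes did not overlap. CCN1 was higher by 0.44 ± 0.041 and PHLDA1 by 0.64 ± 0.058, both in 6 of 6 libraries. CXCL8, a chemokine for neutrophils, was higher by 0.94 ± 0.18, but within depth bins it had 0.53 ± 0.18 and did not pass (edgeR adjusted p = 0.0510). PTGS2, the inducible cyclooxygenase, had 1.36 ± 0.27 at only 1.34 CPM and was not higher in HaloTag 25R. EREG (0.75 ± 0.29) and CXCL3 (0.70 ± 0.29) did not pass.

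**Figure D3:**
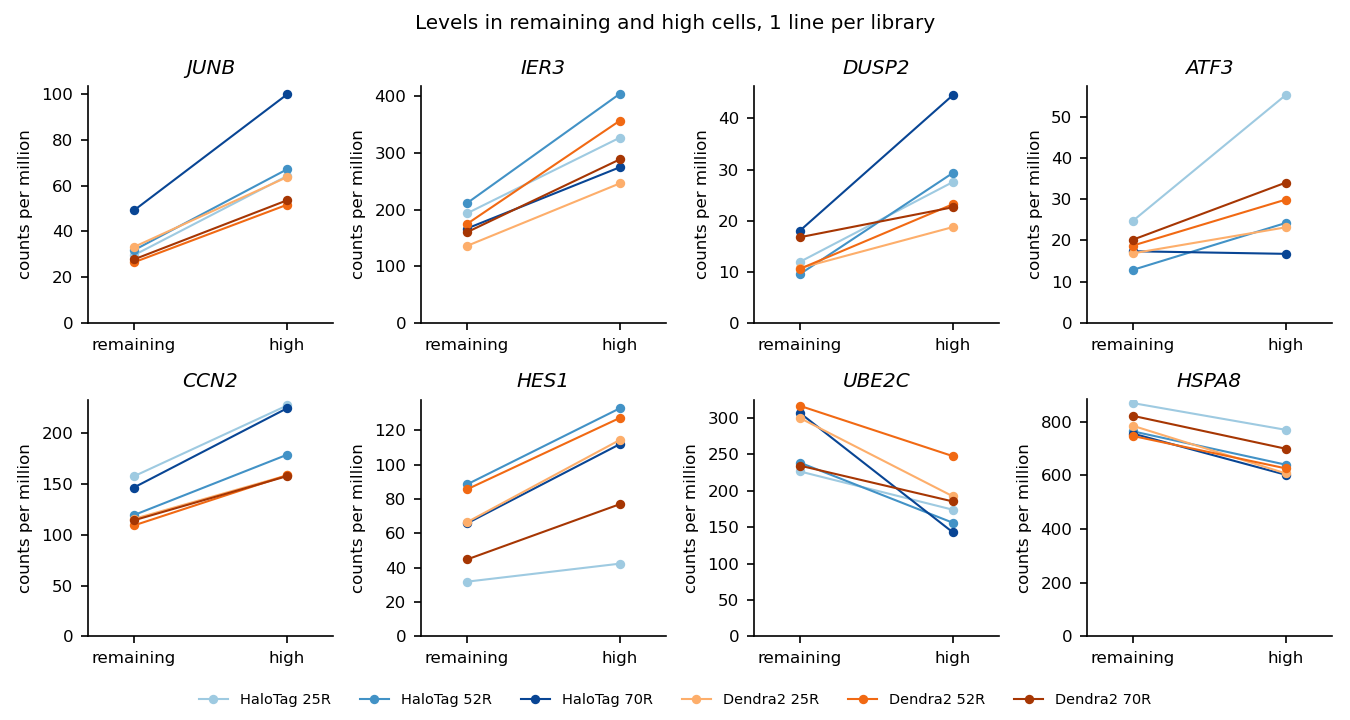
Normalised level (y axis, CPM) of 8 named genes in remaining and high cells, 1 line per library. JUNB, IER3, DUSP2, CCN2 and HES1 climb in 6 of 6 libraries, ATF3 in 5 of 6, and UBE2C and HSPA8 descend in 6 of 6.

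Of 26 components of the ERK, p38 and SRF pathways upstream of these genes, 2 were higher and 2 lower (median -0.03). Over all genes 5.18% were higher and 10.8% lower, so these counts do not set the list apart. The higher ones were SOS1 (0.27 ± 0.065), an activator of RAS, and BRAF (0.24 ± 0.080). HRAS (-0.20 ± 0.041) and MAP2K2 (-0.10 ± 0.034) were lower. Library totals moved the median of all genes from -0.004 to 0.063, and the MAP2K2 fall is near the size of that shift. Within depth bins 1 component was higher and 3 were lower, and BRAF had 0.18 and did not pass (edgeR adjusted p = 0.106). Of 16 SRF and MRTF targets of the cytoskeleton, such as actins, 0 passed as higher and 5 as lower (edgeR). The 5 were CNN1, FHL2, ACTN1, ACTB and ACTG1, at -0.22 to -0.09. Within depth bins 2 were higher and 3 lower, and with library totals 6 were higher and 1 lower, so no direction is given for these genes. Of 13 NF-kB targets, 1 was higher and 1 lower, again not set apart from the shares over all genes. NFKBIZ was higher by 0.59 ± 0.081, from 10.5 to 16.7 CPM in remaining to 11.8 to 31.4 CPM in high cells. SOD2 was lower (-0.22 ± 0.040). Of the 14 short-lived transcripts of other kinds, 7 were higher and 1 lower, and 6 and 1 within depth bins. FBXO32, an E3 ligase component, was higher by 0.44 ± 0.077 and MCL1, a survival factor, by 0.31 ± 0.048, both in 6 of 6 libraries. TXNIP was higher by 0.66 ± 0.10 in 5 of 6, and ODC1, the polyamine enzyme, was lower (-0.31 ± 0.035). TP53INP1 (0.47 ± 0.10), PLK3 (0.37 ± 0.074) and MDM2 (0.14 ± 0.043) were the 3 of 18 p53 targets that were higher, and BAX (-0.10 ± 0.032) the 1 that was lower. Within depth bins 2 were higher and 1 lower, and TP53INP1 had 0.17 and did not pass (edgeR adjusted p = 0.265). The fall of BAX, like that of MAP2K2, is near the size of the shift between scalings.

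**Figure D4:**
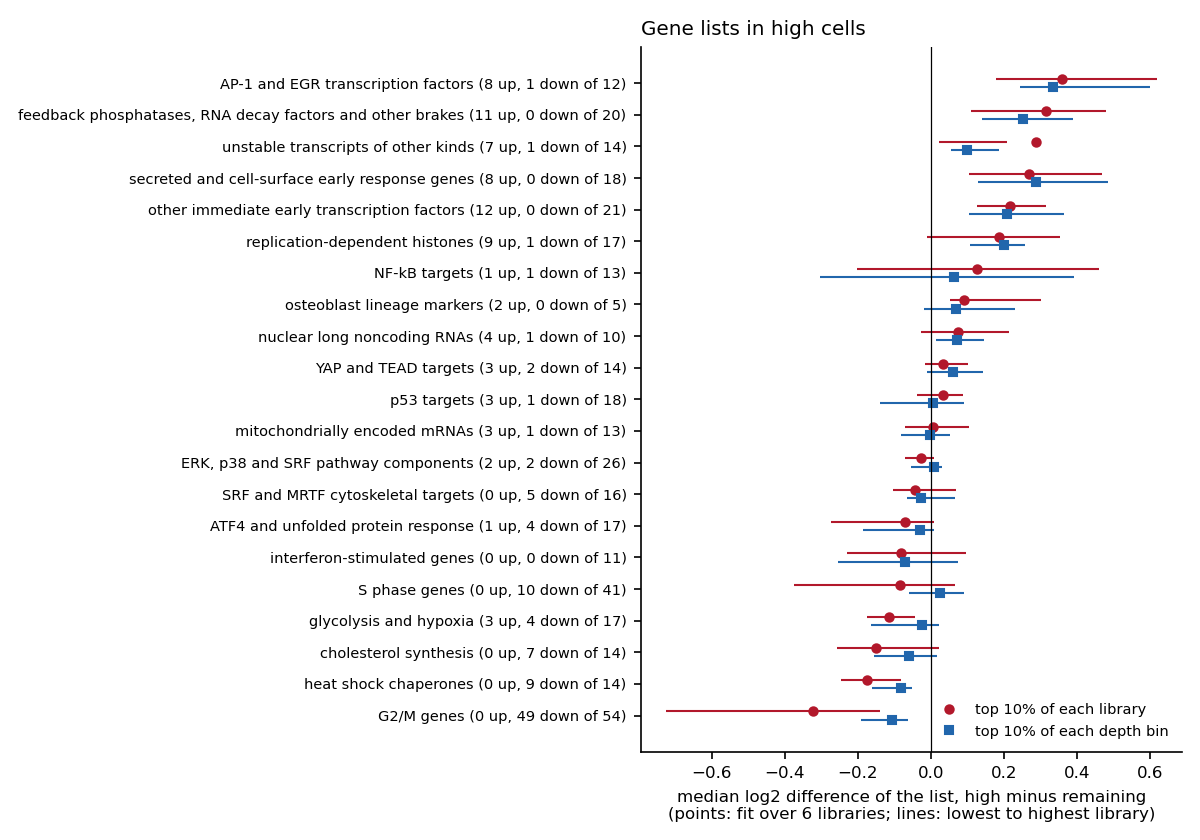
Median log2 difference of each gene list with at least 5 tested members (x axis), for the top 10% of a library (circles) and of each depth bin (squares). Points are medians of the fit over 6 libraries and lines run from the lowest to the highest library, computed with a prior count of 2, so that a median of low genes can lie outside its line. Early-response lists lie to the right, and G2/M genes and chaperones to the left under both choices.

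Genes of mitosis were lower. Of 54 G2/M genes, 49 were lower and 0 higher, with a median of -0.32. Within depth bins 26 were lower and 0 higher, with a median of -0.11. PLK1, a mitotic kinase, stood at 23.1 to 38.5 CPM (median 30.1) in high and 40.9 to 51.1 CPM (median 47.9) in remaining cells, without overlap, a log2 difference of -0.63 ± 0.071 (edgeR adjusted p = 1.63e-07). Within depth bins it was -0.33 ± 0.050 (edgeR adjusted p = 7.58e-06). AURKA (-0.59 ± 0.057), UBE2C (-0.56 ± 0.057) and CDC20 (-0.50 ± 0.060), the last 2 serving the anaphase-promoting complex, were lower in 6 of 6 libraries. The size varied with the library: the list median was -0.73 in HaloTag 70R, the shallowest, and -0.14 in HaloTag 25R.

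When every cell was thinned to 5000 UMIs and given a phase from its S and G2/M scores, G2/M calls took 37.9% ± 12.5 of high and 49.3% ± 7.5 of remaining cells (SD, n = 6), lower in 6 of 6 libraries. The exact permutation p was 0.03125, and 0.0521 after adjustment over 5 cell measures, so it did not pass. Cells under that depth were left out, 5.82% of high and 1.99% of remaining cells on average. S phase calls took 25.5% ± 4.7 and 26.4% ± 4.2. These calls are ranges of a score, not counts of dividing cells. Within depth bins the G2/M shares were 45.1% and 48.5%, and Dendra2 52R went the other way, with 58.5% in high cells against 54.2%. When high cells were taken within depth bins of each called phase, a choice added after the data were seen, 17 G2/M genes were lower and 2 higher, while 9 of 12 AP-1 and EGR members and 11 of 20 brakes were higher. Their medians were then 0.32 and 0.23. Over all genes this choice gave 540 higher and 1264 lower of 15973.

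S phase genes had 10 of 41 members lower and 0 higher, but 1 lower and 4 higher within depth bins, so they had no direction that both choices shared. Replication-dependent histone genes, by contrast, had 9 of 17 members higher and 1 lower, and 10 and 1 within depth bins. HIST1H1A, a linker histone, was higher by 0.25 ± 0.054 in 6 of 6 libraries. The other 8 that passed as higher were higher in 4 or 5 of 6. Poly(A) capture counts only the histone transcripts that end in poly(A).

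Heat shock chaperones, which some stresses raise along with immediate early genes, were lower for 9 of 14 members and higher for 0 (median -0.18). Within depth bins 8 were lower and 1 higher (median -0.08), and with library totals 8 and 1. Of all genes with 100 CPM or more, 772 of 1469 were lower (median -0.10), and within depth bins 777 of 1487 (median -0.08). Within depth bins the chaperone median was thus near that of abundant genes at large, though not every chaperone reaches 100 CPM. HSPA8, the constitutive HSP70, stood at 602 to 769 CPM (median 633) in high and 747 to 869 CPM (median 774) in remaining cells, a log2 difference of -0.27 ± 0.026 (edgeR adjusted p = 1.09e-08). Only HaloTag 25R had a high-cell level inside the range of the remaining cells. HSPE1 (-0.33 ± 0.032) and HSPD1 (-0.26 ± 0.029), the pair that folds proteins in mitochondria, and the inducible HSPA1A (-0.32 ± 0.042) were lower in 6 of 6. ATF4 and unfolded protein genes were divided: DDIT3 was higher by 0.55 ± 0.098 and 4 of 17 were lower, among them PSAT1, a serine synthesis enzyme (-0.48 ± 0.070). DDIT3 rose most in Dendra2 52R, with 19.7 against 9.66 CPM, and then in HaloTag 25R, with 70.5 against 40.1 CPM. It was 10.3 against 11.1 CPM in Dendra2 70R. In cholesterol synthesis 7 of 14 genes were lower and 0 higher, and 5 and 1 within depth bins. DHCR7, which makes cholesterol in the last step of one branch, was lowest at -0.35 ± 0.061.

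Several of the largest rises lay outside the early-response lists. SELENOP, a secreted selenoprotein, stood at 1.73 to 67.2 CPM (median 5.09) in high and 0.45 to 21.4 CPM (median 2.63) in remaining cells, 1.3 ± 0.12 (edgeR adjusted p = 5.38e-09). CXCL14, a chemokine, differed widely between libraries, with 16.3 CPM in the high cells of HaloTag 25R and 705 CPM in those of HaloTag 70R. It was nonetheless higher than in the remaining cells of its own library in 6 of 6, by 1.16 ± 0.081 (edgeR adjusted p = 2.05e-11). KRT14, a basal keratin, was higher by 1.04 ± 0.11, IGFBP5, which binds insulin-like growth factors, by 0.92 ± 0.058, and FN1, fibronectin, by 0.67 ± 0.061. Within depth bins these 5 genes were higher by 0.70, 0.73, 0.54, 0.52 and 0.42, which is 0.52 (KRT14) to 0.63 (CXCL14) of the first size. Of 10 nuclear long noncoding RNAs tested, 4 were higher and 1 lower under both choices (median 0.07). Among them MALAT1 (0.46 ± 0.040) and NEAT1 (0.38 ± 0.050) were higher, by 0.32 and 0.23 within depth bins. SNHG15 was the lower one (-0.21 ± 0.053), and within depth bins it had -0.10 and did not pass (edgeR adjusted p = 0.189). NEAT1 was higher in 5 of 6 libraries, with 1685 against 1734 CPM in HaloTag 25R. MALAT1 stood at 5327 to 10370 CPM in high and 4610 to 6881 CPM in remaining cells.

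The levels moved by degrees along the share and not only at its top. In deciles of cells ranked by the share within each library, the mean of JUNB over 6 libraries went from 26.2 CPM in the first to 31.2 in the fifth, 45 in the ninth and 68.2 in the last. IER3 went from 133 CPM through 173 and 230 to 325 CPM at the same deciles, and DUSP2 from 9.76 through 11.7 and 19.2 to 28.5 CPM. CCN2 went from 91.1 to 189 CPM, CDC20 from 204 to 121 CPM and HSPA8 from 786 to 672 CPM. The median depth was not even along the deciles, with 13152 UMIs in the first, 16855 in the fifth and 12813 in the last. These values describe the ranking and were not tested.

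**Figure D5:**
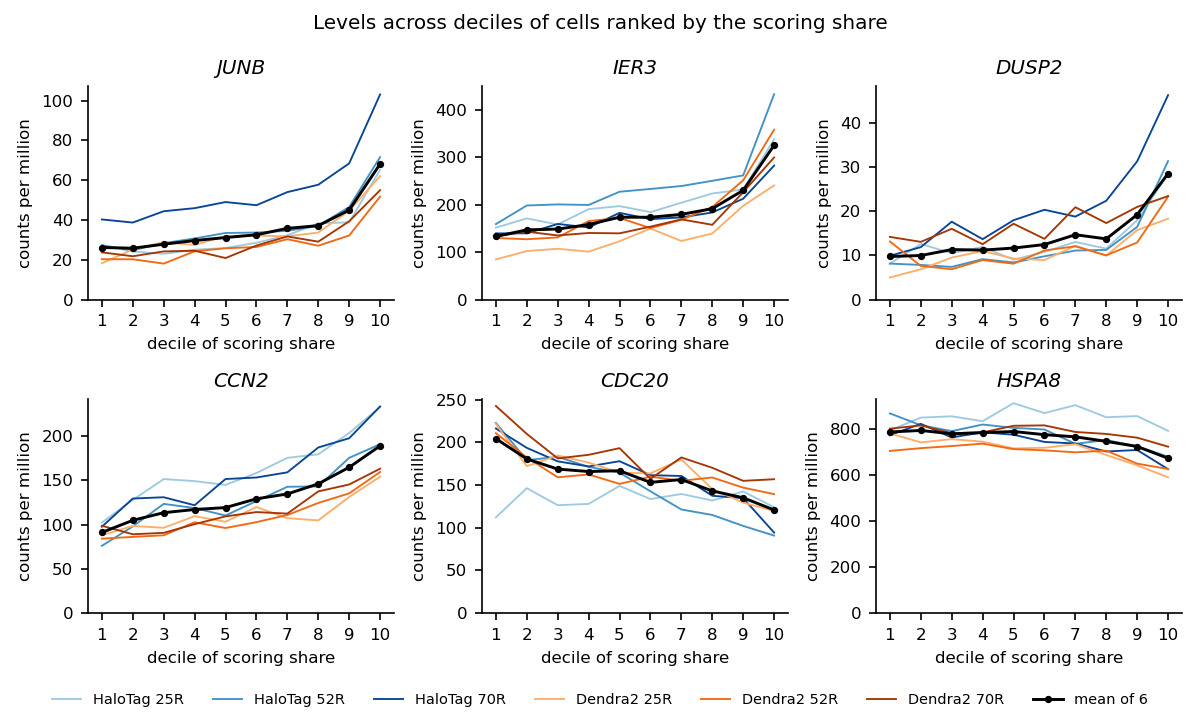
Level (y axis, CPM of summed UMIs) of 6 genes in deciles of cells ranked by the scoring share within a library (x axis, 1 lowest, 10 highest), with 1 coloured line per library and the mean of 6 in black. In the mean, JUNB, IER3 and DUSP2 turn upward in the last 2 deciles, CCN2 ends higher than it starts, and CDC20 and HSPA8 end lower in the mean of 6. In HaloTag 25R, CDC20 goes from 112 to 124 CPM and HSPA8 from 793 to 791 CPM.

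Each scoring gene was also used alone within depth bins, a choice added after the data were seen. Scored by IER2 alone, 9 of 11 AP-1 and EGR members and 16 of 21 other early factors were higher, and 12 of 54 G2/M genes were higher and 1 lower. Scored by JUN alone, 3 of 11 and 4 of 21 were higher and 0 and 4 lower, and 44 of 54 G2/M genes were lower and 1 higher. FOS alone gave 3 of 12 AP-1 and EGR members higher and 1 lower, 11 of 21 other early factors higher and 1 lower, 8 of 20 brakes higher and 1 lower, and 4 of 18 secreted genes higher and 5 lower. EGR1 alone gave 8 of 12 AP-1 and EGR members higher and 1 lower, and 31 of 54 G2/M genes lower and 0 higher. Over all genes, IER2 alone gave 326 higher and 382 lower of 16001, and JUN alone 340 and 729 of 16007. FOS alone gave 888 higher and 1448 lower of 16095, and EGR1 alone 476 and 1231 of 16106. The differences between these choices were not tested.

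The difference between high and remaining cells was then compared between tags and between CTD lengths. For the tags, 0 of 16248 genes passed (0.00%; edgeR, smallest adjusted p = 0.549), with 758 at an unadjusted p under 0.05. Within depth bins 1 of 16018 passed (0.00624%), KRT17, and leaving out HaloTag 25R gave 67. For the CTD lengths 3 genes passed (0.0185%), and 4 within depth bins (0.025%), namely CXCL14, HIST1H4C, CXCL8 and FCN1. CXCL14 was higher in high cells of all 6 libraries, with log2 differences of 1.21 and 1.53 in 25R, 0.73 and 0.83 in 52R and 1.68 and 1.10 in 70R (HaloTag, then Dendra2; edgeR adjusted p = 0.000228). HIST1H4C was at -0.87 and -0.62 in 25R, -0.16 and 0.28 in 52R and -0.11 and -1.64 in 70R (edgeR adjusted p = 2.28e-05), and its level itself ran from 6.84 to 1276 CPM over the high cells of the libraries. CCL4 was scarce, with 70 UMIs in all high cells and 18.6% of them in 1 cell. Without HaloTag 52R 1 gene passed, and without Dendra2 70R 27 passed. With the top 20% of cells 0 passed (edgeR, smallest adjusted p = 0.238), with 824 at an unadjusted p under 0.05.

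The labels call the cells epithelial and the tissue bone. Of 7 epithelial markers, 3 were under 1 CPM, and KRT18 led their sum of 862 to 1593 CPM in high and 847 to 1599 CPM in remaining cells. Of 8 osteoblast lineage markers 3 were under 1 CPM, and the sum, led by SPARC, was 202 to 464 CPM in high and 179 to 431 CPM in remaining cells. Of the 5 osteoblast markers tested, 3 had a difference above 0, and COL1A1 (0.29 ± 0.049) and RUNX2 (0.30 ± 0.067) passed as higher in high cells. ALPL varied with the library, with 2.94 against 4.74 CPM in HaloTag 70R and 0.93 against 0.43 CPM in Dendra2 70R. Of the 4 epithelial markers tested, KRT14 passed as higher and KRT18 as lower (-0.10 ± 0.031). The tests used TMM factors, while the sums and the ALPL levels here are scaled by library totals. On totals KRT18 was higher in high cells of HaloTag 25R, HaloTag 52R (1069 against 968 CPM) and Dendra2 25R. It was lower in HaloTag 70R, Dendra2 52R (889 against 1008 CPM) and Dendra2 70R, so no direction is given for KRT18. Leukocyte markers summed to at most 3.67 CPM and endothelial markers to at most 0.48 CPM in high cells. A summed difference does not show whether many high cells differed a little or a few by much.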

How the data were processed

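Single-cell RNA was measured in 6 U2OS libraries, which the labels list as 9 samples because each HaloTag library was sequenced in 2 runs that the authors merged. UMI counts per gene and cell were deposited by the authors as matrices that, per the file headers, came from Cell Ranger 6.1.2. GRCh38 and bcl2fastq are named in the submitters' processing notes. Libraries were prepared with the 10x 3′ kit, per the labels' protocols. The deposited tables of transcription kinetics were not used here.

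Barcodes under 500 genes or over 20% MT- UMIs, 2.01% to 3.03% of a library, were dropped, leaving 2718 to 4677 cells and 52553686 to 58442223 UMIs per library. No doublet caller was run, and 44 of 20407 distinct barcodes occurred in more than 1 library. The tag sequences were left out of totals and tests. High and remaining cells were summed per library, giving 12 sums of 4082050 to 53244803 UMIs, filtered with filterByExpr and tested with edgeR 4.0.16 (limma 3.58.1, R 4.3.3) with TMM factors and the library as a block. High and remaining cells of a library are paired because they come from 1 culture, so the block is part of the main design. The interactions with tag and CTD length were fitted over the same 12 sums. Standard errors were taken as the log2 difference over the square root of F. Log2 values per library carry a prior count of 2. P-values over libraries measure the spread between lines, with 1 library per line. Cell measures were compared by two-sided exact permutation of signs over 6 libraries, whose smallest p is 0.03125. Phases were called with scanpy 1.11.5 after thinning to 5000 UMIs, using 25 bins of expression and, for each list gene, 50 controls. On simulated sums with 16052 genes, 100% of genes changed 1.5-fold and 100% of those changed 2-fold were recovered for this comparison, with 10 false calls among 210. The changed genes were few and not drawn from the rarest, and all libraries were given the same means. In the data, called log2 differences at 10 to 100 CPM had a median size of 0.24, below a 1.5-fold change. The simulation therefore does not cover such small changes or rare genes.

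Genes named were, among those past 0.05 averaging 10 CPM or more and with one direction in 6 of 6 libraries, the 12 with the largest rise and the 12 with the largest fall, up to 4 members past the threshold of each of 24 gene lists, all AP-1 and EGR members, and the genes of the interactions. The text describes some of these, and adds list members by role after their values were seen: KLF10, BHLHE40, NR4A1, MYC, SRF, DUSP1, DUSP6, ZFP36L1, BTG2, EREG, CXCL3, ACTG1, HSPD1, MCL1, FBXO32, ODC1, CDC20 and CCL4. The rule, the scoring genes and the lists were chosen with earlier results of these data known. Alternatives were other thresholds, depth bins, thinning, cell filters, choice within phases, scores without 1 gene, other scalings and filters, no block, DESeq2 1.42.0, each tag alone and leaving out each library. Depth sets the precision of a low gene, as for EGR2. Promoters and coordinates came from RefSeq and GENCODE tables on GRCh38. Other tools were numpy 2.4.6, pandas 2.3.3, scipy 1.17.1, anndata 0.12.19 and matplotlib 3.10.9 in Python 3.11.15.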

Additional observations from a re-analysis of the deposited data

Results flagged for a closer look

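Among 114 sets of 6 library values (the named genes' differences and the cell measures), 4 had a lowest value set apart from the other 5 by more than Dixon's 95% limit, and chance alone flags about 1 set in 20. EGR2 had a log2 difference of 0.22 in Dendra2 25R, against 2.5 to 3.33 in the other libraries. ARRDC3, an arrestin-like gene, had -0.086 in Dendra2 52R against 0.48 to 0.65. ANKRD1, a YAP target, had -0.039 in Dendra2 70R against 0.24 to 0.37. DSCC1, a replication factor, had -0.77 in HaloTag 70R against -0.24 to 0.01.

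Between CTD lengths, the difference of high from remaining cells passed edgeR's test of the interaction for HIST1H4C (adjusted p = 2.28e-05), CXCL14 (0.000228) and CCL4 (0.0312). CCL4 gave 0 UMIs in the high cells of both 25R libraries, which held 17 (HaloTag) and 44 (Dendra2) in remaining cells, so its value rests on few counts. Without HaloTag 52R 1 gene passed this test, and with the top 20% of cells 0 passed (edgeR, smallest adjusted p = 0.238), with 824 at an unadjusted p under 0.05.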

How the results depend on the processing

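All 6 libraries gave 2592 calls. The HaloTag libraries alone gave 662 and the Dendra2 libraries alone 1475 (232 and 459 higher, 430 and 1016 lower), of which 643 and 1337 were among the 2592 with the same direction. This leaves 3 libraries in each. Choosing high cells by their counts after thinning to 5000 UMIs gave 1348 (469 higher, 879 lower). Cells under that depth were left out, and the full counts of the chosen cells were summed. Ties made the high class 11.7% (Dendra2 25R) to 18.3% (Dendra2 70R) of cells. High cells still had fewer UMIs, with mean library medians of 14600 against 15870, so this choice did not equalise depth. Without the low-count filter 509 were higher and 3105 lower, and with library totals 1593 and 753. High cells chosen in depth bins within called phases gave 540 higher. Without the replicate block, that is without pairing high and remaining cells of a library, edgeR called 0 genes (0 higher, 0 lower), with 347 at an unadjusted p under 0.05, because differences between the 6 lines then enter the error. The block value is the one reported because both classes come from the same culture. Leaving out 1 library gave 1793 to 2652 calls (623 to 870 higher, 1170 to 1782 lower). The scores of a single gene, added after the data were seen, gave 2336 calls for FOS (888 higher, 1448 lower), 1069 for JUN (340 higher, 729 lower), 1707 for EGR1 (476 higher, 1231 lower) and 708 for IER2 (326 higher, 382 lower). The test between tags gave 1 gene, KRT17, in depth bins and 0 to 67 without 1 library. The test between CTD lengths gave 0 with the top 20% of cells and 1 to 27 without 1 library. The cause of these changes was not tested.

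With 1 library left out, the left-out scoring genes gave log2 differences of 1.37 to 1.55 (FOS), 0.33 to 0.43 (JUN), 1.52 to 1.70 (EGR1) and 0.68 to 0.79 (IER2), at an exact permutation p of 0.0625, the smallest that 5 libraries allow. With the top 20% of cells the differences of high from remaining cells were -2210 UMIs and -305 genes, given as a description because UMIs are the share's denominator. They were 0.304 percentage points of MT- counts and -9.45 points of G2/M calls, both with an adjusted exact permutation p of 0.0391. S phase calls, which had not passed, changed sign to 0.775 points with the top 20% and to 0.220 points with high cells chosen after thinning. Detected genes changed sign to 68.1 in depth bins.

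The 102 named genes were refitted under 30 alternatives, 3041 values in all: 2398 kept their direction and side of the threshold, 569 fell short of it (98 of these without the block), 28 newly passed and 46 changed sign. Of those, 43 came from the scores of a single gene. With JUN alone these were NR4A3 at -0.31, HES1 at -0.027, PHLDA1 at -0.058, KLHL24 at -0.0065, TP53INP1 at -0.10, NAB2 at -0.048, FOSL1 at -0.039, NAB1 at -0.086, GMNN at 0.028, CNN1 at 0.038 and FJX1 at 0.069 (log2). With FOS alone they were CXCL8 at -1.38, DUSP5 at -0.14, ANKRD1 at -0.029, HIST1H1A at -0.013, FOSL1 at -0.16, MT-ND2 at 0.045, SOD2 at 0.011, PSRC1 at 0.032, PIF1 at 0.20 and FAM83D at 0.012. With EGR1 alone they were TXNIP at -0.049, MT-ND2 at 0.036, DSCC1 at 0.012, FHL2 at 0.0080 and FEN1 at 0.023. With IER2 alone they were TP53INP1 at -0.018, ACTB at 0.033, ACTN1 at 0.019, SQLE at 0.034, DSCC1 at 0.043, GMNN at 0.00076, FHL2 at 0.016, FEN1 at 0.084, HIST1H4C at 0.34, HSPA1A at 0.0079, CENPA at 0.086, CDCA8 at 0.087, NEK2 at 0.0055, UBE2C at 0.075, CDCA3 at 0.055, AURKA at 0.00010 and PIF1 at 0.0058. The remaining 3 were FOSL1 at -0.086 with the score lacking IER2, and HIST1H4C at 0.011 within phases and 0.10 without the block. Of the 46, CXCL8 and PIF1 under FOS alone and HIST1H4C under IER2 alone passed the test with the new sign.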
